A study of Homo sapiens with 10 samples.

Results

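The NRF2 antioxidant and NADPH genes examined here are 33 genes, chosen by name as the transcription factor NRF2 (gene NFE2L2), its sensor KEAP1, its partner MAFG and genes known as NRF2 targets. The choice was made with earlier results of these data known. Of the 33, 31 had a probe set that names a single gene and 30 were bright enough to test, against 19775 genes measured and 12979 tested in the series. Each gene was read from its brightest single-gene probe set by mean log2(intensity + 16) over the 10 arrays. Other probe sets served as a check for the genes that had any. CYP4F11 was measured but too dim to test, and FTH1 and NR0B1 were not analysed here.

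RNA of 2 non-small cell lung cancer lines was measured on Affymetrix human expression arrays. HTB-182, called H520 in the series title, is labelled squamous cell carcinoma, and A549 is an adenocarcinoma line known to carry a mutant KEAP1. After 4 h in medium with 10% charcoal-stripped serum, each line received one of 5 treatments for 3 h. These were vehicle (0.1% ethanol), estradiol (1 µM), estradiol (1 µM) with tamoxifen (10 µM), a conjugate of estradiol and serum albumin (estradiol-BSA, 1 µM), and estradiol-BSA (1 µM) with tamoxifen (10 µM). All groups thus shared the stripped-serum medium, and the conjugate was meant to act on membrane receptors alone, with tamoxifen as an inhibitor. The titles of the estradiol with tamoxifen arrays name tamoxifen alone, and the source descriptions, which name both compounds, were followed. The source descriptions of the A549 arrays run both line names together, and their cell line entry, A549, was used. Each line and treatment had 1 array and no replicate cultures are stated, so p-values measure only how these arrays scatter, and that scatter may be technical. The line difference cannot be told apart from anything else that differed between the cultures, and is not assigned to KEAP1.

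NRF2 is a transcription factor that KEAP1 holds in the cytoplasm and hands to the CUL3 ubiquitin ligase for degradation. When oxidants or electrophiles modify KEAP1, or when KEAP1 is mutated, NRF2 accumulates, pairs with a small MAF protein and binds antioxidant response elements. Its targets make glutathione, regenerate thioredoxin, supply NADPH, reduce quinones and carbonyls, and handle heme and iron, and in lung cancers with mutant KEAP1 many of them are known to be raised without added stress.

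The antioxidant response element has a core that reads TGACNNNGC, which was searched on both strands of the RefSeq promoters (build GRCh38.p14), 300 bases each, from 250 before to 50 after the start. The table matched 28 of the 33 genes with 35 promoters, and held none for HMOX1, SLC7A11, GSR, CBR3 and FTH1. A core match lay in 12 of these 35 promoters (34.3%), belonging to 11 genes, and in 4687 of all 35116 promoters (13.3%). The form TGACTCAGC, which contains the AP-1 motif TGACTCA and is also counted in the core, lay in 2 member promoters (5.71%), of ME1 and PIR, and in 0.561% of all promoters. The windows below are shown because they place a core match upstream of genes of several roles whose values follow, including the sensor itself. They run 5′ to 3′ along the gene's strand, and capitals mark the match (for KEAP1, TXNRD1 and ME1, 1 of several), written as GCNNNGTCA where it lies on the opposite strand.
GCLM, chr1:93909436-93909484, minus strand: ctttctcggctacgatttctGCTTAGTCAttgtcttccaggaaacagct
GPX2, chr14:64942839-64942887, minus strand: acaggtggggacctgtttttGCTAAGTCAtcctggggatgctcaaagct
TXNRD1, chr12:104215660-104215708, plus strand: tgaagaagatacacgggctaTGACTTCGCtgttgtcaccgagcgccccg
PGD, chr1:10398843-10398891, plus strand: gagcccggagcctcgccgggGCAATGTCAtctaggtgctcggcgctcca
ME1, chr6:83431160-83431208, minus strand: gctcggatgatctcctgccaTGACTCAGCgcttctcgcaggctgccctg
CBR1, chr21:36069845-36069893, plus strand: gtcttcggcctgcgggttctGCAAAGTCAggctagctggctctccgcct
EPHX1, chr1:225825256-225825304, plus strand: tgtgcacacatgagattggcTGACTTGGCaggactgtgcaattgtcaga
KEAP1, chr19:10502774-10502822, minus strand: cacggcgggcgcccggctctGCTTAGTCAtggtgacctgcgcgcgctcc
KEAP1 carried a match and was lower in A549, while the other 7 genes shown were higher there. PIR carried a match and did not pass the test between the lines. Genes without a match in their promoters were also higher in A549, among them PTGR1, BLVRB, UGDH and SRXN1. GPX3, MAFG and HTATIP2 had no match and did not pass. A match describes letters only, an element outside the searched bases would be missed, and binding was not measured.

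Compared with HTB-182, A549 had higher RNA levels of genes of every target role. HMOX1, PTGR1, BLVRB and UGDH were 10.5- to 43.1-fold higher, while KEAP1 was 1.70-fold lower. Of the 30 tested members, 26 passed the test between the lines, 25 higher and 1 lower in A549 (limma, Benjamini-Hochberg adjusted p under 0.05 over all genes, cell line and treatment as terms). The background was high: 65.7% of all tested genes passed, 33.6% higher and 32% lower. These shares are also the ones to set beside the counts by role that follow. The median difference of the members was 1.11 on the log2 scale, against 0.03 for all tested genes. The members were chosen with earlier results of these data known, so these contrasts describe the list and are no independent test. A difference that passed and reached 2-fold higher was found for 18 members and for 13.2% of all genes, and one of 4-fold for 5 members and 5.04% of all genes. All 5 arrays of A549 lay above all 5 of HTB-182 for 25 members (30.3% of all genes), and below them for KEAP1 (28.2%). All 30 tested members had a mean above the filter intensity of 19.7 in both lines, so none was kept by its level in 1 line alone. The fold changes are on the log2(intensity + 16) scale, which understates the change of dim genes. In bulk RNA, fewer cells of a kind and less RNA per cell cannot be told apart.

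**Figure D1:**
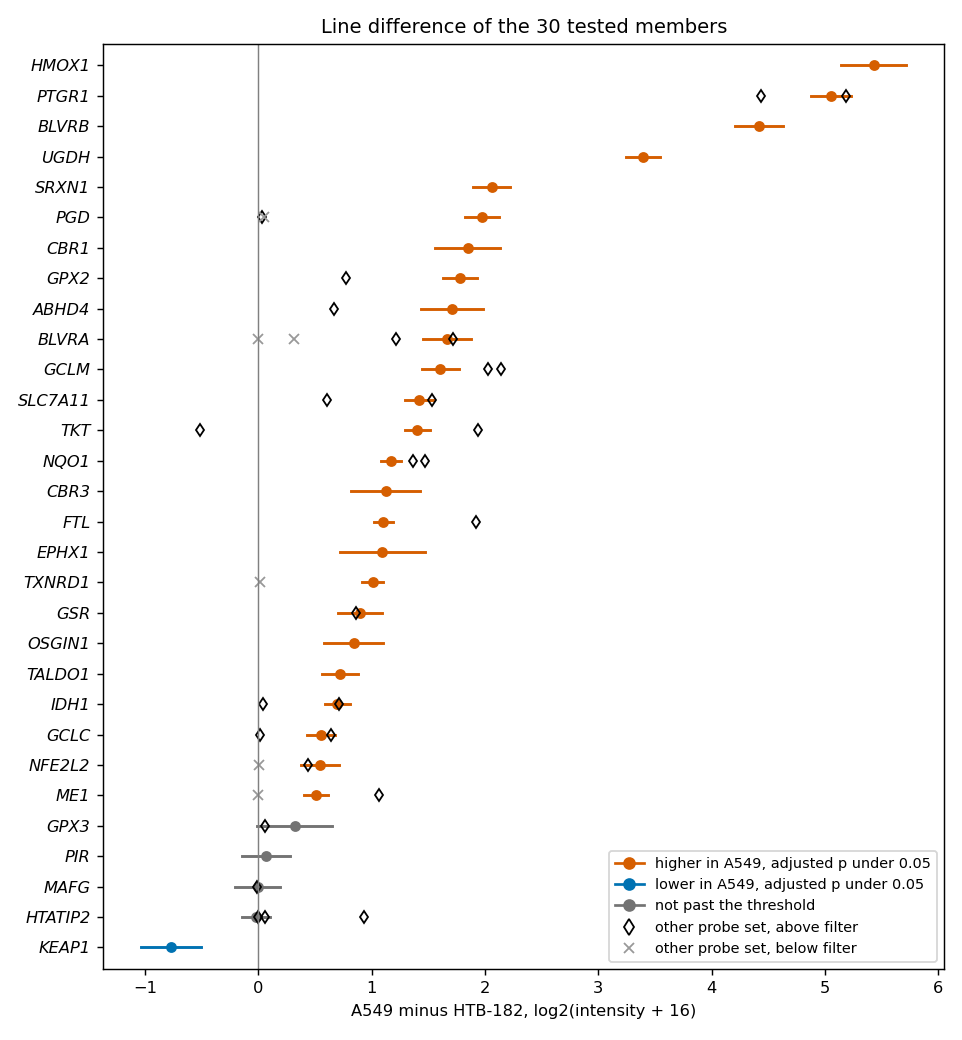
Line difference of the 30 tested members, A549 minus HTB-182, as log2 differences of log2(intensity + 16) with 95% intervals from limma as bars, other probe sets of the gene as diamonds (crosses where below the filter). The members run from -0.77 for KEAP1 to 5.43 for HMOX1, and 25 lie above 0 past the threshold.

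Among the sensor and the transcription factors, the RNA of KEAP1 and NFE2L2 differed in opposite directions. KEAP1 (NCBI Gene 9817), the adaptor that holds NRF2, measured 894, 885, 918, 1019 and 999 in HTB-182 with vehicle, estradiol, estradiol with tamoxifen, estradiol-BSA and estradiol-BSA with tamoxifen. In A549, in the same order as for every series of 5 values here, KEAP1 measured 767, 566, 470, 499 and 475. Every A549 array was below every HTB-182 array, with the A549 vehicle array nearest to HTB-182. The difference of KEAP1 was -0.77 (SE 0.12, adjusted p 0.000153, limma). NFE2L2 (Gene 4780), which encodes NRF2 itself, measured 1497, 1511, 1453, 1475 and 1550 in HTB-182. In A549, NFE2L2 measured 1850, 1995, 2236, 2496 and 2432. The groups did not overlap, the A549 vehicle array was the lowest of its line, and the difference was 0.54 (SE 0.07, adjusted p 6.08e-05, limma). MAFG, the small MAF partner, overlapped between the lines, at 316 to 340 in HTB-182 and 300.4 to 342 in A549, and its difference of -0.01 (95% interval -0.21 to 0.19) did not pass.

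Of the 6 glutathione genes, 5 were higher in A549. SLC7A11, the cystine importer that feeds glutathione synthesis, measured 1086, 1115, 1112, 1155 and 1191 in HTB-182. In A549 it measured 2769, 3004, 3151, 3049 and 3284. The ranges lay far apart, for a difference of 1.42 (SE 0.06, adjusted p 1.90e-09, limma). GCLM, the modifier subunit of glutamate-cysteine ligase, the first enzyme of glutathione synthesis, measured 1243, 1068, 1256, 1275 and 1253 in HTB-182. In A549, GCLM measured 3069, 3751, 3930, 4031 and 3980. Its difference was 1.61 (SE 0.07), against 0.55 (SE 0.06) for GCLC, the catalytic subunit of the same enzyme, which ran from 1653 to 1990 in HTB-182 and from 2556 to 2882 in A549. GPX2, a glutathione peroxidase of epithelia, measured 1662, 1519, 1506, 1641 and 1649 in HTB-182. In A549, GPX2 measured 6631, 5900, 5029, 4999 and 5142, and its difference was 1.78 (SE 0.07, adjusted p 1.28e-09, limma). GSR, which regenerates reduced glutathione with NADPH, differed by 0.90 (SE 0.09). GPX3, the secreted peroxidase, overlapped between the lines, at 40.1 to 80.3 in HTB-182 and 51.5 to 104 in A549, and did not pass (0.32, SE 0.15, adjusted p 0.0842, limma).

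Both thioredoxin genes were higher in A549. TXNRD1, the cytosolic thioredoxin reductase, measured 3810, 3716, 3309, 3788 and 3841 in HTB-182. In A549, TXNRD1 measured 7703, 6982, 6936, 7952 and 7677, a difference of 1.01 (SE 0.04). SRXN1, the sulfiredoxin that repairs overoxidised peroxiredoxins, ran from 731 to 808 in HTB-182 and from 2813 to 3600 in A549, a 4.16-fold difference. The groups of both genes stood apart without overlap.

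The 5 genes of NADPH supply and the pentose phosphate pathway were all higher in A549, with differences from 0.51 to 1.98. PGD, the 6-phosphogluconate dehydrogenase of the pentose phosphate pathway, measured 877, 798, 781, 885 and 809 in HTB-182. In A549, PGD measured 3707, 3531, 3188, 3039 and 3118, and its difference was 1.98 (SE 0.07, adjusted p 5.51e-10, limma). The non-oxidative enzymes TKT and TALDO1, which recycle pentose phosphates, were higher by 1.40 (SE 0.05) and 0.72 (SE 0.07). ME1, the cytosolic malic enzyme, and IDH1, the cytosolic isocitrate dehydrogenase, were higher by 0.51 (SE 0.05) and 0.70 (SE 0.05). The folds of these genes ran from 1.42 for ME1 to 3.93 for PGD.

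All 6 tested genes that act on quinones, carbonyls and xenobiotics were higher in A549. PTGR1, a reductase of prostaglandins and reactive alkenals, measured 141, 122, 129, 139 and 139 in HTB-182. In A549, PTGR1 (Gene 22949) measured 5201, 5374, 4734, 4467 and 5124, and its difference of 5.06 (SE 0.08) had the smallest adjusted p of the members, 2.09e-12 (limma). UGDH, which makes UDP-glucuronate for conjugation, measured 407, 404, 440, 478 and 490 in HTB-182. In A549, UGDH measured 3918, 4240, 5035, 5789 and 5319, a 10.5-fold difference. NQO1, the quinone reductase widely used as a readout of NRF2, differed less and was among the brightest members. NQO1 measured 3714, 3696, 3611, 3843 and 3934 in HTB-182, and 8340, 8764, 8366, 8402 and 8577 in A549. Its difference was 1.17 (SE 0.04, adjusted p 5.08e-10, limma), and its dimmer probe sets gave 1.47 and 1.37. The carbonyl reductases CBR1 and CBR3 were higher by 1.85 (SE 0.13) and 1.12 (SE 0.14), and the epoxide hydrolase EPHX1 by 1.09 (SE 0.17). CYP4F11, a cytochrome P450 of fatty acids, lay between 5.70 and 9.31 in HTB-182 and between 12.1 and 33.6 in A549 and was not tested.

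All 4 measured heme and iron genes were higher, and HMOX1 had the largest difference of the tested members. HMOX1 (Gene 3162), which opens heme to biliverdin, measured 72.1, 60.8, 72.7, 76.2 and 83.7 in HTB-182. In A549, HMOX1 measured 4891, 4538, 3394, 3218 and 3328. The lines were 43.1-fold apart (5.43, SE 0.13, adjusted p 3.40e-11, limma), and within A549 the vehicle and estradiol arrays were the highest. BLVRB, the biliverdin reductase that also reduces flavins, measured 96.2, 101, 103, 89.4 and 104 in HTB-182. In A549, BLVRB measured 2856, 2697, 2132, 2326 and 2236, a 21.4-fold difference. BLVRA, which turns biliverdin into bilirubin, was 3.17-fold higher. FTL, the ferritin light chain, was 2.15-fold higher, at 5671 to 6059 in HTB-182 and 12197 to 13212 in A549. The A549 values of FTL lie near the highest intensity of any probe set on an array, 13393 to 14548, so they leave little room above them.

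Of the other 4 tested genes, ABHD4, a lipase, was higher by 1.71 (SE 0.12), and OSGIN1, a growth inhibitor induced by oxidative stress, by 0.84 (SE 0.12). PIR, an iron-binding nuclear protein, overlapped between the lines and did not pass (0.06, 95% interval -0.15 to 0.28). HTATIP2, an oxidoreductase, also overlapped and did not pass (-0.02, 95% interval -0.14 to 0.10).

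**Figure D2:**
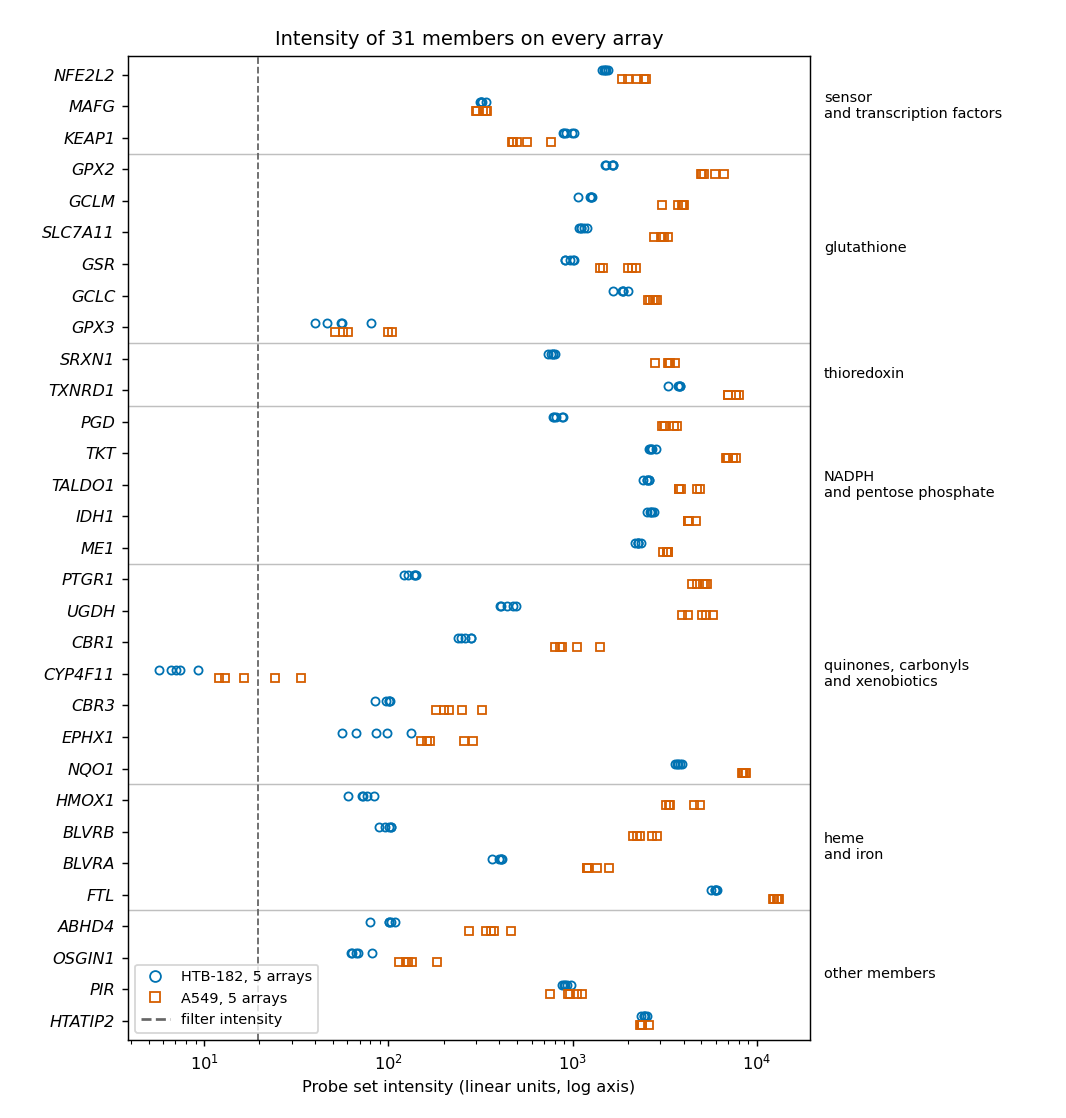
Intensity of the 31 measured members on all 10 arrays, on a log axis, with HTB-182 as circles, A549 as squares, 1 point per array and the filter intensity as a dashed line. HMOX1, PTGR1, BLVRB and UGDH show the widest gaps between the lines, and the points of MAFG, GPX3, PIR and HTATIP2 overlap.

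The other probe sets of the same genes gave mostly the same sign and in places another size. No such check existed for 12 measured members with a single probe set, among them HMOX1, BLVRB, UGDH, SRXN1 and KEAP1. Of 34 other probe sets, 28 were above the filter and 25 of those had the sign of the brightest, several with differences near 0. Those of PTGR1 gave 5.19 and 4.44, those of NQO1 1.47 and 1.37, and those of GCLM 2.03 and 2.14. For FTL the other probe set gave 1.92, above the 1.10 of the brightest, which is near the top of the scale. A dimmer probe set of TKT, still above the filter at 110 in HTB-182 and 72.6 in A549, gave -0.52, while a bright one gave 1.93. One probe set of HTATIP2 gave 0.93, against -0.02 for the brightest. For PGD the other probe set above the filter gave 0.03 at intensities of 19.8 and 20.8, near the filter. With the mean of all probe sets the difference fell to 0.69 for PGD and 0.98 for BLVRA, over 1.5-fold from the main value, and both still passed. The brightest probe sets of BLVRA and FTL are of the kind that can share sequence with other transcripts.

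Other genes of the pathway, listed by function, did not all follow the members. These lists were drawn up with earlier results of these data known. For each list, the share of all tested genes to set beside it is 33.6% higher and 32% lower. Of 16 regulators and partners of NRF2 tested (18 listed), 4 were higher and 5 lower in A549, with a median of -0.03. SQSTM1, the autophagy receptor that sequesters KEAP1, was higher by 2.13 (576 against 2578 in mean intensity), and CUL3, the ligase scaffold, was lower, at -0.47 (2171 against 1571). BACH1, the repressor that competes with NRF2 at HMOX1, did not pass (160 against 175). Of 23 further glutathione genes tested (24 listed), 15 were higher and 4 lower, with a median of 0.73. The conjugate pump ABCC3 was 18.1 in HTB-182 and 2680 in A549, the peroxidase GPX8 3.89 and 610.2, and both, with GSTM4 and OPLAH, are the 4 of these 15 genes whose HTB-182 mean lay below the filter. The glutaredoxin GLRX, above the filter in both lines, was higher by 3.93, while the transferase GSTA4 differed by -0.96. Of 20 further detoxification genes tested (22 listed), 15 were higher, 1 of them (SLC40A1) with its HTB-182 mean below the filter, and 3 lower, with a median of 0.72. The aldo-keto reductase AKR1B10 was 31.4 in HTB-182 and 12361 in A549, a difference of 8.03 (SE 0.08). Its A549 mean lies near the highest intensity on an array, as for FTL. The aldehyde dehydrogenases ALDH3A1 and ALDH1A1 were higher by 3.70 and 3.57. In the same list TXNIP, the thioredoxin inhibitor, differed by -4.02.

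The further NADPH and pentose phosphate genes mostly went the other way. Of 16 tested (19 listed), 3 were higher (33.6% of all genes) and 10 lower (32%) in A549, with a median of -0.53. All 5 NADPH and pentose phosphate genes among the members were higher. PHGDH, the first enzyme of serine synthesis, differed by -3.09, NADK, the cytosolic NAD kinase, by -2.03, NNT, the mitochondrial transhydrogenase, by -1.97 and MTHFD2, of mitochondrial folate metabolism, by -1.01. The exceptions included GLUD1, glutamate dehydrogenase, at 1.14, and DERA, a deoxyribose-phosphate aldolase, at 1.04. Of 16 other antioxidant genes tested (19 listed), 7 were higher (33.6% of all genes) and 5 lower (32%), with a median of 0.01. Among them PON2 was higher by 2.68, the superoxide dismutase SOD1 differed by -1.08, and the peroxiredoxin PRDX2 was 4431 in HTB-182 and 5.94, below the filter, in A549.

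The labelled lines were checked against marker lists. SOX2, a squamous lineage factor, was 4152 in HTB-182 and 135 in A549. KRT7, a keratin of adenocarcinomas, was 18.1 in HTB-182, below the filter, and 3411 in A549. SOX2 in HTB-182 and KRT7 in A549 made up most of the summed level of their lists. FOXA2, also listed for adenocarcinoma, was lower in A549 (974 against 508, -0.92, adjusted p 2.31e-06, limma). Of the squamous markers 3 were tested, with 0 higher and 2 lower in A549. Of the adenocarcinoma markers 6 were tested, with 3 higher and 1 lower. Among all tested genes 33.6% were higher and 32% lower. SOX2 was the only bright squamous marker in HTB-182, and the other squamous markers measured were dim in both lines. In HTB-182, DSC3 was 29.4, KRT5 22.1, PKP1 16.5, DSG3 13.4, SERPINB5 8.93 and KRT14 8.43. DSC3 was lower in A549, where it lay near the filter, and KRT5 was 26.1 there. The adenocarcinoma marker NKX2-1 lay near the filter in both lines (17.9 and 17.0). Over each list, the summed intensity was 3938 to 4465 in HTB-182 and 137 to 287 in A549 for the 7 squamous markers measured. It was 1057 to 1214 and 3521 to 4964 for the 8 adenocarcinoma markers, and 5494 to 5816 and 12166 to 13787 for the 8 mesenchymal ones. For the 7 blood and endothelial markers measured it was 135 to 166 and 195 to 281. Of these, 4 were tested. CD14 was higher in A549 (10.6 against 82.2, adjusted p 8.40e-07, limma). Its HTB-182 mean lay below the filter, so only its A549 level kept it in the test. HBB was 65.2 and 64.9. PTPRC of blood cells (7.29 and 8.80) and CDH5 of endothelium (4.14 and 4.14) were below the filter in both lines and were not tested. The ratio of the 3′ to the 5′ actin probe sets, a sign of RNA integrity or labelling, was 3.74 to 6.13 in HTB-182 and 2.66 to 3.57 in A549, and that of GAPDH 1.46 to 1.74 and 1.43 to 1.61. The part of these differences in the results was not tested.

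Within a line the members varied little. The median log2 SD over the 5 arrays of a line was 0.08 for HTB-182 and 0.17 for A549, against 0.09 and 0.18 for all tested genes, and 27 of 30 members spread more in A549 (83.1% of all genes). The A549 vehicle array stood apart in the series: 263 genes were at least 2-fold off the other A549 arrays, 249 of them lower, against 23 to 35 for the other A549 arrays and 0 to 3 for those of HTB-182. No member was 2-fold off on any array, and the median size of the members' distance from the other arrays of the line was 0.29 on the A549 vehicle array and 0.10 to 0.15 on the other A549 arrays. Among the A549 arrays the vehicle array was the highest for 15 of 30 members (49.6% of all genes) and the lowest for 10 (17.2%). Highest there were, for example, KEAP1, GPX2, CBR1 and HMOX1, and lowest were NFE2L2, SLC7A11, GSR, NQO1 and UGDH. Without the A549 vehicle and estradiol arrays, an alternative chosen after seeing the data, 26 members still passed between the lines (67.7% of all genes). Their median was 1.10.

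**Figure D3:**
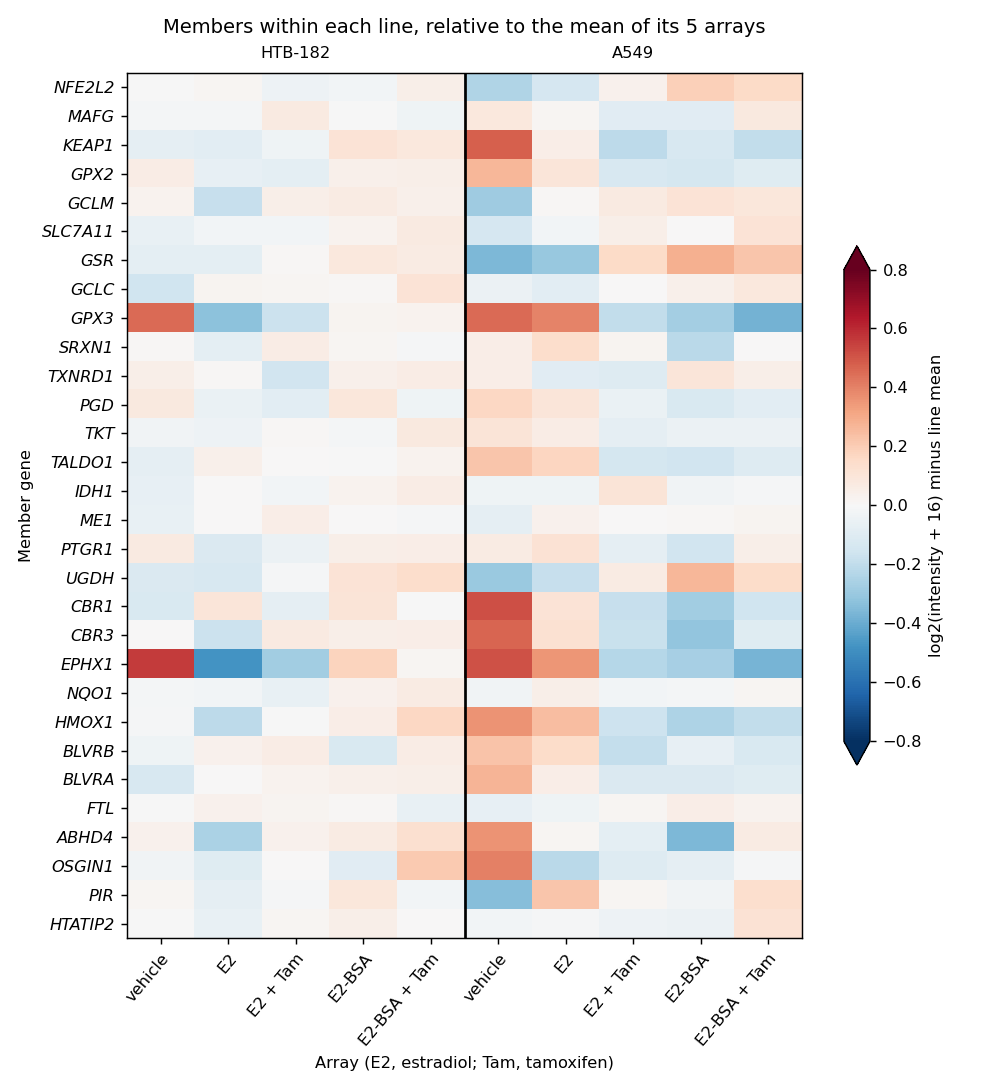
Colour map of each tested member (rows) on each array (columns, HTB-182 left and A549 right), where red is above and blue below the mean of the line's 5 arrays in log2(intensity + 16). Colours are mostly pale in HTB-182 and stronger in A549, where the vehicle array lies farthest from the others.

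No member passed the test in any treatment comparison by limma, where 0% of all genes passed. The lines served as the block, with 2 pairs of arrays per comparison and 4 for tamoxifen. The comparisons against vehicle share the vehicle arrays. An unadjusted p under 0.05 was reached by 1 member for estradiol (4.48% of all genes), 3 for estradiol-BSA (6.47%), 4 for estradiol with tamoxifen (4.58%) and 5 for estradiol-BSA with tamoxifen (7.41%). None of these held after adjustment over all genes. The median half-width of the unadjusted 95% intervals was 1.20-fold. Against vehicle, EPHX1 and GPX3 had the most negative differences of the members in all 4 comparisons. GSR and UGDH had the most positive ones in all but free estradiol alone, where PIR did (0.24, adjusted p 0.913, limma). These rankings use the brightest probe sets. For GCLM that probe set gave 0.21 for estradiol-BSA, 0.18 for estradiol with tamoxifen and 0.19 for estradiol-BSA with tamoxifen. The median of its 2 other probe sets, both above the filter, was higher, at 0.74, 0.45 and 0.72, and was not tested.

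EPHX1, which hydrolyses epoxides, measured 132, 56.2, 67.0, 98.0 and 85.8 in HTB-182. In A549, EPHX1 measured 290, 258, 168, 163 and 150.1. The vehicle array was the highest of its line in both. Against vehicle its differences were -0.60 (SE 0.27, adjusted p 0.913) for estradiol, -0.58 (adjusted p 0.665) for estradiol-BSA, -0.79 (adjusted p 0.786) for estradiol with tamoxifen and -0.71 (adjusted p 0.653) for estradiol-BSA with tamoxifen, all by limma. For estradiol EPHX1 stood at -1.04 in the HTB-182 pair and -0.16 in the A549 pair. EPHX1 has a single probe set, so no other reading of it was at hand.

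GPX3 measured 80.3, 40.1, 46.4, 55.4 and 55.8 in HTB-182, and 104, 99.5, 60.6, 56.6 and 51.5 in A549. Its differences were -0.58, -0.64 and -0.63 for estradiol-BSA, estradiol with tamoxifen and estradiol-BSA with tamoxifen (SE 0.24 each). By pair, HTB-182 gave -0.43 and A549 -0.73 for estradiol-BSA, -0.63 and -0.65 for estradiol with tamoxifen, and -0.42 and -0.83 for estradiol-BSA with tamoxifen. Both lines thus lay below vehicle in each. A dimmer probe set of GPX3 gave -0.18, -0.18 and -0.11.

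GSR measured 909, 911, 968, 1024 and 1008 in HTB-182. In A549, GSR measured 1405, 1458, 2010, 2206 and 2107. The vehicle and estradiol arrays were low and the other 3 high in both lines, by much more in A549. Its difference was 0.41 (SE 0.14) for estradiol-BSA and 0.36 for estradiol-BSA with tamoxifen, and the dimmer probe set gave -0.02 and -0.07. UGDH, with the values given above, differed by 0.39 (SE 0.11) and 0.35 in the same comparisons. GPX2 differed by -0.27 and TXNRD1 by -0.18 for estradiol with tamoxifen, and GCLC by 0.20 for estradiol-BSA with tamoxifen. Over both lines the vehicle array was the highest for 3 members, GPX2, GPX3 and EPHX1 (6.84% of all genes), and the lowest for 4, SLC7A11, GSR, ME1 and IDH1 (4.21%).

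**Figure D4:**
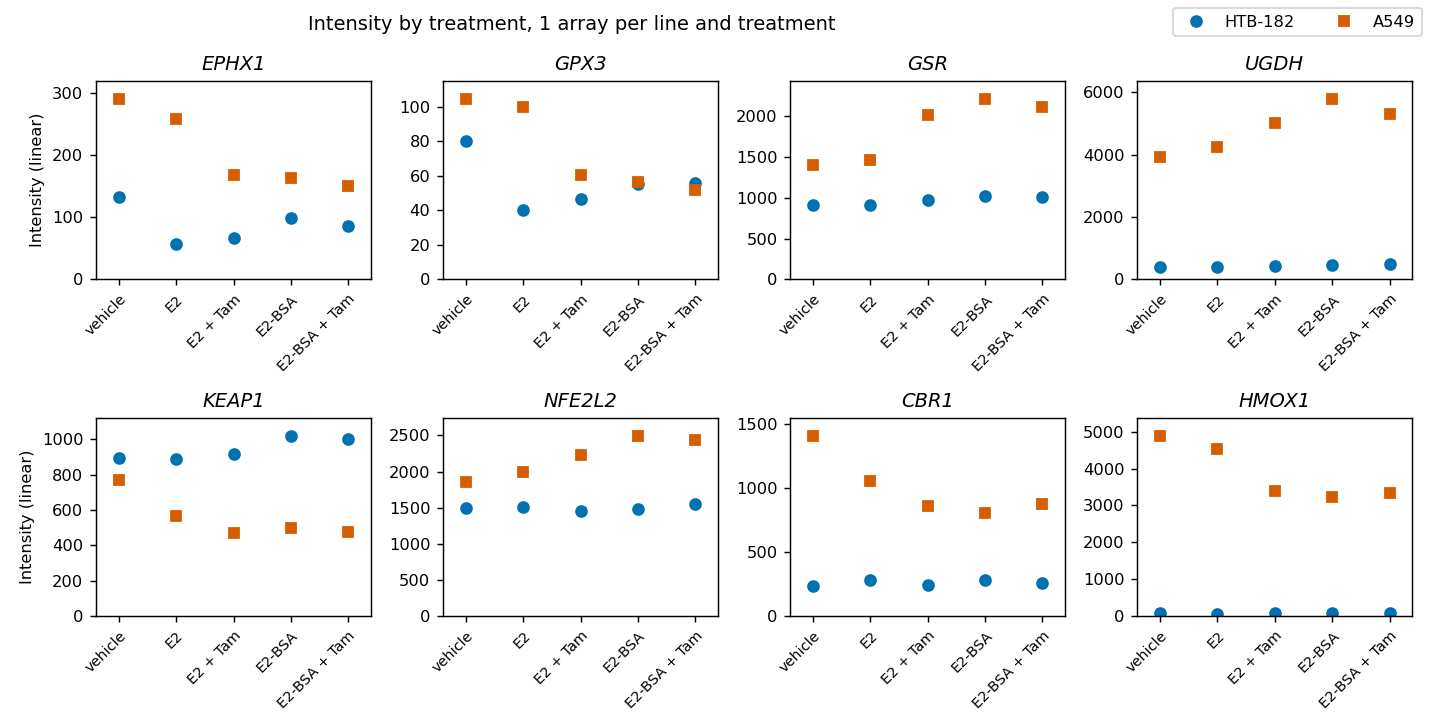
Linear intensity of 8 members by treatment, 1 array per line and treatment, with HTB-182 as circles and A549 as squares. EPHX1 and GPX3 are highest on the vehicle arrays, and in A549 the vehicle and estradiol arrays often lie on one side of the other 3.

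Free estradiol and its albumin conjugate were given at the same dose and time, 1 µM for 3 h. No member passed between them (0% of all genes), and 2 had an unadjusted p under 0.05 (3.5% of all genes). GSR was 0.38 apart (SE 0.14, 95% interval 0.07 to 0.68), with 0.17 in HTB-182 and 0.59 in A549, and its dimmer probe set gave -0.19. UGDH was 0.34 apart (SE 0.11, 95% interval 0.10 to 0.58), with 0.23 and 0.45. Both had an adjusted p of 0.993 (limma). For GCLM the brightest probe set gave 0.18, and the median of its other probe sets was 0.74, which was not tested. NQO1 was at -0.0022 with an interval of -0.14 to 0.14, and all 30 intervals lay within 2-fold.

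Tamoxifen, added to either estrogen form, moved no member past the threshold (0% of all genes) and gave none an unadjusted p under 0.05 (1.16% of all genes). The differences of the members ran from -0.16 for EPHX1 to 0.17 for ABHD4, and all 30 intervals lay within 2-fold. OSGIN1 was the single member on the same side in all 4 pairs, at 0.10, 0.11, 0.30 and 0.06, while 7.36% of all genes were higher in every pair. Its difference was 0.14 (SE 0.13, adjusted p 0.9998, limma). Given for their role, HMOX1 differed by -0.01 (95% interval -0.33 to 0.31) and NFE2L2 by 0.04 (95% interval -0.15 to 0.22).

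Whether the lines differed in their response was tested with interaction terms. For tamoxifen no member passed (0% of all genes) and none had an unadjusted p under 0.05 (2% of all genes). For estrogen without tamoxifen against vehicle, no member passed, while 2.84% of all genes did (2.23% higher and 0.616% lower), and 3 members had an unadjusted p under 0.05 (16% of all genes). These were KEAP1 at -0.60 (adjusted p 0.213), GCLM at 0.43 (adjusted p 0.229) and CBR1 at -0.82 (adjusted p 0.0856), by limma. This term fits each vehicle array exactly, so it rests on the A549 vehicle array that stood apart. CBR1 measured 239, 280, 247, 281 and 260 in HTB-182, and 1410, 1059, 860, 805 and 875 in A549, where the vehicle array was the highest.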

How the data were processed

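Total RNA of 10 cultures was labelled and hybridised per the labels' protocols. The values are linear intensities that the authors deposited as 1 table, and MAS5 is the program named, per the submitters' processing notes. No version and no scaling target for it were found in the labels. Array medians ran from 17.5 to 21.5, and the number of arrays limits the precision.

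Of 54675 probe sets, 62 controls were left out, and 41091 name 1 gene in the platform annotation, 1801 several and 11721 none. Intensities were taken as log2(intensity + 16). A gene was tested when its mean log2 value reached the median probe set, an intensity of 19.7, which held for 12979 of 19775 genes. Samples were grouped by their source descriptions. limma 3.58.1 in R 4.3.3 was fitted with an intensity trend to cell line and treatment (4 residual degrees of freedom), with line by tamoxifen (3) and line by estrogen terms (2) added in turn, and adjusted by Benjamini-Hochberg at 0.05. The scripts were tested on simulated data.

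The members and the further lists were chosen with earlier results of these data known. Every member that passed between the lines could be named. In treatment comparisons a member was named at an unadjusted p under 0.05 or where both lines differed the same way by a set minimum fold, up to 6 each. From each further list up to 4 genes in each direction were eligible, while BACH1, the cell type markers, and HMOX1, NFE2L2 and NQO1 in the treatment comparisons, are given for their role. GCLM in the treatment comparisons is given for its other probe sets. Other pseudocounts, filters, scalings, probe set rules, weights and the leaving out of arrays were tried.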

Additional observations from a re-analysis of the deposited data

Results flagged for a closer look

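In 9 of 62 groups of 5 arrays, 1 array stood apart from the other 4: its gap to the nearest, as a share of the group's whole range, was above Dixon's 95% critical value of 0.710. Chance alone marks about 1 in 20 such groups, 9 of 62 is 14.5%, and over all measured genes on the same arrays the share was 7.41%. MAFG in HTB-182 was highest on the estradiol with tamoxifen array, at 340 against 316 to 322, for a gap share of 0.732. GCLM in HTB-182 was lowest on the estradiol array, at 1068 against 1243 to 1275, for a gap share of 0.857. GCLM in A549 was lowest on the vehicle array, at 3069 against 3751 to 4031, for a gap share of 0.735. TXNRD1 in HTB-182 was lowest on the estradiol with tamoxifen array, at 3309 against 3716 to 3841, for a gap share of 0.778. IDH1 in A549 was highest on the estradiol with tamoxifen array, at 4659 against 4221 to 4303, for a gap share of 0.805. CBR3 in HTB-182 was lowest on the estradiol array, at 84.3 against 96.8 to 102, for a gap share of 0.715. BLVRA in HTB-182 was lowest on the vehicle array, at 364 against 400 to 413, for a gap share of 0.747. HTATIP2 in A549 was highest on the estradiol-BSA with tamoxifen array, at 2613 against 2326 to 2388, for a gap share of 0.774. ABHD4 in HTB-182 was lowest on the estradiol array, at 79.8 against 101 to 109, for a gap share of 0.753. In HTB-182 the estradiol array was the low one for GCLM, CBR3 and ABHD4, and it was the lowest of its line for 14 of 30 members and for 32.5% of all genes. Without that array 26 members still passed between the lines (61.1% of all genes). The line by estrogen count went from 0 to 10 members, while the share of all genes went from 2.84% to 17.3%.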

How the results depend on the processing

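Under 22 other settings the 26 members that passed between the lines kept their direction and stayed past the threshold wherever they were tested. Their count ran from 26 to 27, with 27 when no filter was applied (CYP4F11 added), with the mean of all probe sets (HTATIP2), and without either estradiol-BSA with tamoxifen array (GPX3, 0.42). Of all genes tested, 47.3% passed with no filter and 76.5% with the filter at the 75th percentile, the lowest and highest shares. The median of the members moved to 0.96 with the mean of all probe sets. HMOX1 fell to 4.82 with a pseudocount of 64. Members that did not pass changed sign: HTATIP2 to 0.24 with the mean of all probe sets and to 0.0025 without either estradiol-BSA array, PIR to -0.0091 without either estradiol array, and MAFG to 0.033 without either estradiol with tamoxifen array and 0.015 without either estradiol-BSA array. Leaving out each array in turn moved these from -0.050 to 0.0025 for HTATIP2, from -0.0091 to 0.15 for PIR and from -0.036 to 0.033 for MAFG. The cause was not tested.

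The counts of 0 in the 4 comparisons with vehicle changed without the HTB-182 vehicle array. Without it, vehicle is the A549 vehicle array alone, assumed to vary like the others, and 1 member passed for estradiol, 8 for estradiol-BSA, 5 for estradiol with tamoxifen and 5 for estradiol-BSA with tamoxifen, when 8.31%, 15.9%, 13.5% and 16.2% of all genes did. Leaving out each array in turn thus gave 0 to 1, 0 to 8, 0 to 5 and 0 to 5. It gave 0 to 0 for estradiol-BSA against estradiol, tamoxifen and line by tamoxifen, and 0 to 10 for line by estrogen, with 10 (2 higher, 8 lower) without either estradiol array, when 17.3% and 17.6% of all genes passed, and 2 without either estradiol-BSA array, when 3.7% and 3.9% did. The line by estrogen term could not be fitted without either vehicle array. With 1 array per line and treatment, a single treated array against the vehicle array of its line has no replicate and was not tested, and no depth in counts exists for these intensities.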
